A study of Mus musculus with 7 samples.

Results

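Introns are removed from nuclear transcripts by the spliceosome, which is built on each intron from small nuclear ribonucleoproteins (snRNPs), each an RNA with a ring of Sm proteins and proteins of its own. The U1 snRNP marks the start of the intron, the U2 snRNP with its SF3a and SF3b subcomplexes binds the branch point, and the PRPF proteins belong largely to the tri-snRNP and to the factors that activate and remodel the assembled machine. SR proteins bind exons and recruit these parts, whereas hnRNP proteins coat nascent RNA and often oppose them, and blood cancers carry recurrent mutations in some of these genes. The genes considered here were those whose symbol in the platform annotation begins with Snrp, Srsf, Sf3a, Sf3b, Hnrnp or Prpf. The rule found 58 genes with 108 of the 25697 probes on the array, of which 43 genes could be measured.

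The mouse leukemia cells, labelled as leukemia stem cells, were freshly isolated and held in suspension for 6 h. One group received 5 µM BRD7116, a small molecule known here by its code name, in 0.2% DMSO (5 arrays), and the other received 0.2% DMSO alone (2 arrays). RNA levels were read on Illumina MouseRef-8 v2.0 bead arrays. The genotype of the leukemia, the strain and age of the mice, and whether replicates were separate cultures are not given in the sources used here, so p-values here reflect only how these samples vary, and that variation may be technical.

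The 7 arrays lay on 3 chips. The dim chip, with BRD7116 replicate 1 and DMSO replicate 2, detected 4585 and 4412 probes at a detection p under 0.05, against 6749 to 8451 on the other arrays. On the second chip were the treated replicate 2 and DMSO replicate 1, and on the third the treated replicates 3, 4 and 5. Of 11 myeloid progenitor markers on the array, 10 were detected on at least 2 arrays and 7 on all, among them Mpo, Elane and Prtn3, while Cebpa was detected on none. Of 8 T and NK cell markers, none was detected on 2 arrays. Hba-a1 and Tfrc, the 2 of 6 red cell markers that were measured, had lower means with BRD7116 but did not pass (limma adjusted p = 0.658 for each). The summed level of the list was 580 to 815 linear units on the treated arrays against 1002 and 1154 on the controls, with Klf1 and Alas2 detected nowhere. The part of red cell precursors in the results on splicing genes was not tested. In RNA from a cell mixture, fewer cells of a type and less RNA per cell cannot be told apart.

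The splicing genes were given no test as a set, and their values are set beside those of the whole array. In the comparison of BRD7116 with DMSO, none of the 43 measured genes passed an adjusted p of 0.05 (limma, Benjamini-Hochberg over 6969 genes and unnamed probes), and none of the 6969 did (0%). The smallest adjusted p among them was 0.658. An unadjusted p under 0.05 was found for 4 of the 43, or 9.30%, beside 7.07% of all features. All 4 had the lower mean with BRD7116 and none the higher, beside 3.7% and 3.37% of all features. They were Snrpb2, Sf3b6, Sf3b2 and Hnrnph3. Leaving out DMSO replicate 2 gave 0, where 1.77% of all features met that limit. Leaving out DMSO replicate 1 gave 7, of which 2 (Hnrnph1 and Hnrnpm) had the higher mean, where 24.2% of all features did. Without the dim chip 2 other genes met it, Snrpd3 with the higher mean and Srsf3 with the lower, where 9.52% of all features did.

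Of the 43 genes, 22 had higher and 21 lower means with BRD7116, beside 3845 and 3124 of the 6969 features. Median scaling, read relative to the median of all features, gave 30 and 13 instead, and a block for chip gave 14 and 29. Their median log2 fold change was 0.04, beside 0.05 over all features. For 32 of the 43, or 74.4%, the 95% interval of the fold change lay within 2-fold in both directions, beside 57.5% of all features. Among the 28 genes detected on all 7 arrays it did so for 26, beside 85.3% of the 2714 features detected on all arrays. The treated arrays lay wholly below both controls for 6 genes, or 14.0%, and wholly above for none, where 5.4% and 5.75% of all features did so. These 6 were Snrpb2, Sf3b6, Sf3b2, Sf3b3, Hnrnph3 and Hnrnpa1.

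**Figure D1:**
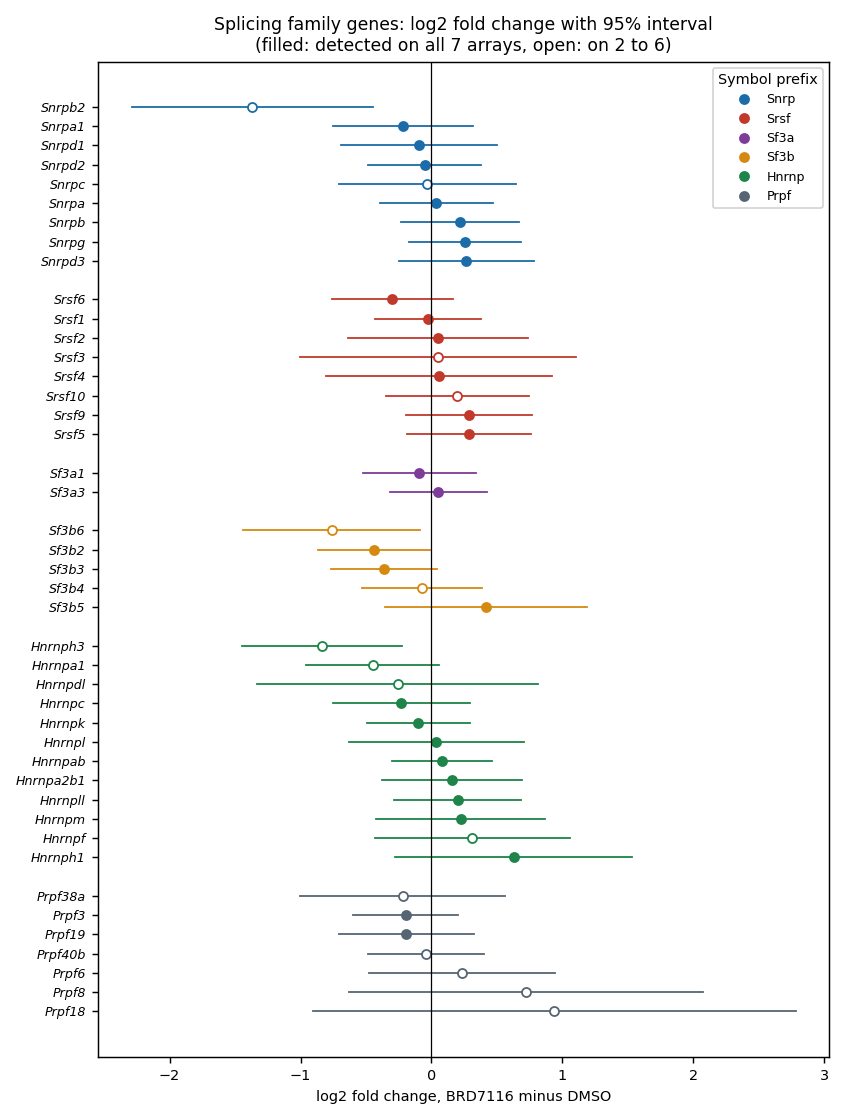
Log2 fold change of BRD7116 against DMSO (horizontal axis) for the 43 measured splicing genes, grouped by symbol prefix, with bars for the 95% interval from limma over 5 treated and 2 control arrays. Most intervals cross 0, and those of Snrpb2, Sf3b6, Sf3b2 and Hnrnph3 lie wholly below it. For Hnrnpf, Prpf6 and Srsf10, not detected in either control, the points are fitted differences and no fold is read from them.

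Of the 6 genes with separate groups, 4 encode proteins of the U2 snRNP: Snrpb2, Sf3b2, Sf3b3 and Sf3b6. Because these genes share a particle and had lower means together, their promoters are shown, from 250 bases before to 50 bases after the start listed by RefSeq (build GRCm38.p6, read along the gene's strand). Sf3b2 has 2 listed starts, of which the first is shown. Capitals mark each match to CCGGAAG, the core bound by ETS transcription factors, or to its reverse complement CTTCCGG.
Sf3b2, chr19:5295408-5295707, minus strand: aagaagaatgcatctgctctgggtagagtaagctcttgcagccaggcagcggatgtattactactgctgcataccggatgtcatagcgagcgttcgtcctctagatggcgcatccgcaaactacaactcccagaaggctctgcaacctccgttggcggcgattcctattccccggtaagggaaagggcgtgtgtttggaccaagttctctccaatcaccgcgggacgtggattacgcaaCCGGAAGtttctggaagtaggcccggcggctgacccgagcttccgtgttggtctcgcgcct
Sf3b3, chr8:110846754-110847053, minus strand: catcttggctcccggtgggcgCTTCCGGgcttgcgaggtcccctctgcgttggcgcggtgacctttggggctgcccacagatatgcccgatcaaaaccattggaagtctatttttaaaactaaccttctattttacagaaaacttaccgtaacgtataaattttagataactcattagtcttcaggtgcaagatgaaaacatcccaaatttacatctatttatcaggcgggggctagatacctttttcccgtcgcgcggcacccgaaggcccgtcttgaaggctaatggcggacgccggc
Sf3b6, chr12:4817358-4817657, plus strand: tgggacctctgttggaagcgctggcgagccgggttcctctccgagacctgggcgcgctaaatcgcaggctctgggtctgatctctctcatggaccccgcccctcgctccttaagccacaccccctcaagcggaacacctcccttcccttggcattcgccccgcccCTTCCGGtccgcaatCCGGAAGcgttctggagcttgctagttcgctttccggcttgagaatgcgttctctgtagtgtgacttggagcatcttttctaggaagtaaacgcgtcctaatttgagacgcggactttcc
Snrpb2, chr2:143062819-143063118, plus strand: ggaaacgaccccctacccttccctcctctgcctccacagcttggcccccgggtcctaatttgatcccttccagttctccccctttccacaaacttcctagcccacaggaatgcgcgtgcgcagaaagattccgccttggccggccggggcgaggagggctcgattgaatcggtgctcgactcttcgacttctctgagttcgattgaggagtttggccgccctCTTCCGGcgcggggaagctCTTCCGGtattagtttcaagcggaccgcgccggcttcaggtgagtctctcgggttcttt

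Each of these 4 windows held the ETS core, with 1 match in Sf3b2 and Sf3b3 and 2 in Sf3b6 and Snrpb2. The match nearest the upstream end lay 229 bases before the start in Sf3b3, 85 in Sf3b6, 28 in Snrpb2 and 11 in Sf3b2. The core was common in the family at large: 18 of the 52 splicing genes with a listed promoter held it, or 34.6%. Of 27025 genes with windows of this length, 9.93% did, and those were not limited to genes measured here. The core was found in 10 of the other 31 measured genes with a promoter and in 4 of the 15 that could not be measured. It was in neither Hnrnph3 nor Hnrnpa1. Other measured U2 genes with a listed promoter were Sf3a1 and Sf3a3, which held it, and Snrpa1, which did not. The 4 genes shown were picked by their values in these data, so their matches are no test of the core. Of 6 further motifs searched on both strands, TATAAA was in 13.5% of the splicing genes and 15.7% of all, CCAAT in 51.9% and 41.1%, the E-box CACGTG in 17.3% and 8.09%, and the cyclic AMP element TGACGTCA in 3.85% and 2.03%. The NRF1 and ZNF143 consensus motifs, each of at least 10 letters, were in none of the 52, and in 1.07% and 0.311% of all. A gene with several listed starts was counted if any window matched. These matches describe the letters only.

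Snrpb2 encodes a U2 protein that grips a stem-loop of U2 RNA. Its normalized log2 intensities were 5.36, 6.00, 5.27, 5.63 and 5.46 on BRD7116 replicates 1 to 5, and 6.14 and 7.69 on DMSO replicates 1 and 2. The dim-chip control was far above the rest, and the other control was just above the highest treated array. The means were 5.55 ± 0.29 (SD, n = 5) and 6.91 ± 1.09 (SD, n = 2), which gave a log2 fold change of -1.37 (standard error 0.40, limma adjusted p = 0.658), the lowest in the family. The probe was not detected on the treated array of the dim chip, so the size of the difference inside that chip is not given, and inside the second chip it was -0.14. It was -0.64 without DMSO replicate 2 and -2.14 without DMSO replicate 1, where its limma adjusted p was 0.0108. The lone remaining control in such fits is assumed to vary like the treated arrays. Normexp background correction gave -0.79 and the authors' values -0.43.

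Its partner in the particle, Snrpa1, was 7.28 ± 0.27 (SD, n = 5) with BRD7116 and 7.49 ± 0.26 (SD, n = 2) with DMSO. The treated arrays spanned both sides of the controls, and the log2 fold change was -0.22 with an interval of -0.76 to 0.32.

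SF3b holds the branch-point adenosine in place and is the target of several splicing inhibitors. Phf5a, an SF3b subunit outside the prefixes, was detected on all arrays, with a log2 fold change of 0.10 (interval -0.39 to 0.58). Of the 6 genes on the array with the Sf3b prefix 5 were measured, and 4 had the lower mean with BRD7116. The median log2 fold change over the 5 was -0.36, and it was -0.18 without the dim chip and -0.22 with the authors' values. None of the 5 passed.

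Sf3b2 (SAP145), which contacts RNA near the branch point, was detected on all arrays, at 10.79, 10.57, 10.42, 10.41 and 10.47 on BRD7116 replicates 1 to 5 and at 10.84 and 11.10 on the DMSO replicates. All treated arrays lay below both controls, the dim-chip array closest to them. The log2 fold change was -0.44 (standard error 0.19, limma adjusted p = 0.658). The differences inside the dim and second chips were -0.31 and -0.27, and the value was -0.29 with chip as a block.

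Sf3b3 (SAP130), the large scaffold of the complex, read 8.87, 8.97, 8.83, 8.66 and 8.76 with BRD7116 and 9.04 and 9.32 with DMSO. The gap between the lowest control and the highest treated array, both on the second chip, was 0.07 (log2). The log2 fold change was -0.36 (standard error 0.18, adjusted p = 0.658), and it was -0.22 without DMSO replicate 2. Sf3b6 (p14), the subunit that sits at the branch adenosine, read 5.06, 5.27, 5.28, 5.37 and 5.41 with BRD7116 and 5.48 and 6.60 with DMSO. Only 2 treated arrays detected it, along with both controls, so its treated levels lie near background, and the treated arrays of both the dim and the second chip did not detect it. Its log2 fold change of -0.76 (standard error 0.29, adjusted p = 0.658) came to -0.22 with the authors' values and -0.22 without DMSO replicate 2. Without DMSO replicate 1 it was -1.34 with an adjusted p of 0.0148.

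The other subunits with the Sf3b prefix gave other values. Sf3b4 (SAP49) was 5.48 ± 0.22 (SD, n = 5) and 5.55 ± 0.02 (SD, n = 2), a log2 fold change of -0.07. It was detected on 4 treated arrays and 1 control but on neither array of the dim chip, so these values rest partly on background. Sf3b5, a small core subunit, was the 1 measured gene of the prefix with a higher mean, at 8.15 ± 0.42 (SD, n = 5) against 7.73 ± 0.53 (SD, n = 2). Its log2 fold change of 0.42 had an interval of -0.35 to 1.19. Sf3b1, the subunit mutated in myeloid disease, was detected on no array. In the SF3a subcomplex, which joins SF3b to U2, Sf3a1 had a log2 fold change of -0.09 (interval -0.53 to 0.34) and Sf3a3 of 0.05 (interval -0.32 to 0.42), and Sf3a2 was detected on no array. Over all 9 measured U2 proteins with the prefixes used here, which leave out Phf5a, 7 had the lower mean and the median was -0.22. This grouping was drawn after the values were seen and was given no test.

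**Figure D2:**
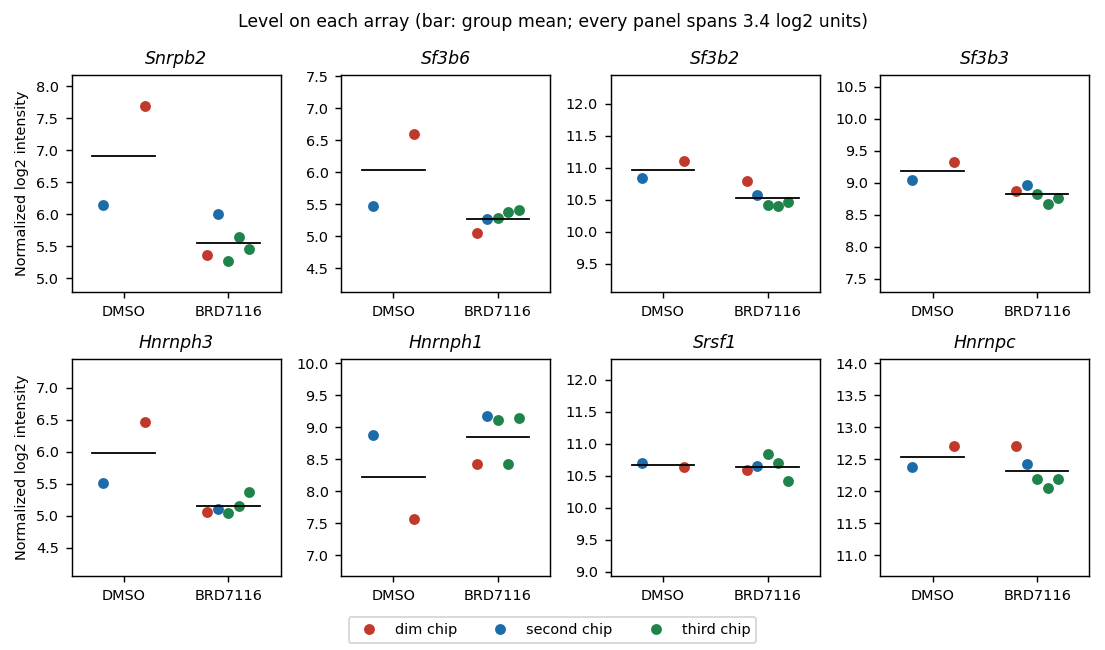
Normalized log2 intensity (vertical axis) of 8 splicing genes on each array, by group, with colour for the chip and a bar for the group mean. For Snrpb2, Sf3b6 and Hnrnph3 the dim-chip control lies high above all other arrays, while Sf3b2 and Sf3b3 lie lower with BRD7116 by a smaller amount and Srsf1 overlaps fully.

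Sm proteins form the ring shared by most spliceosomal snRNPs. Of 7 Sm genes on the array 5 were measured, all on every array. Snrpg read 9.45, 9.83, 9.67, 9.74 and 9.74 with BRD7116 and 9.59 and 9.27 with DMSO, so that 4 treated arrays were above both controls and the dim-chip array lay between them. Its log2 fold change was 0.26 (standard error 0.19, adjusted p = 0.701). Snrpd3 had 0.27 (interval -0.25 to 0.78), with differences of -0.18 and 0.26 inside the dim and second chips. Snrpb had 0.22, Snrpd2 -0.05 and Snrpd1 -0.10, each with an interval across 0. Snrpe and Snrpn were detected on no array. The U1 proteins Snrpa (U1-A) and Snrpc (U1-C) had log2 fold changes of 0.04 (interval -0.39 to 0.47) and -0.03 (interval -0.71 to 0.64).

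SR proteins bind exonic enhancers through an RNA-recognition domain and recruit U1 and U2 through a tail of arginine and serine repeats. Of 9 genes 8 were measured, 6 with a higher and 2 with a lower mean, a median log2 fold change of 0.05, and 0 separate groups. Inside the dim and second chips their medians were -0.06 and -0.14, beside 0.017 and 0.003 over all features. On both chips 4 of the 8 were lower and 1 was higher, where 1782 and 1921 of the 6969 features were. Undetected probes are included in these chip values. Srsf1, the founding member (ASF/SF2), read 10.59, 10.66, 10.84, 10.70 and 10.42 with BRD7116 and 10.71 and 10.63 with DMSO. Treated and control arrays overlapped fully, and the log2 fold change of -0.03 had an interval of -0.43 to 0.38. Srsf5 had the highest log2 fold change in the group, 9.43 ± 0.21 (SD, n = 5) against 9.14 ± 0.20 (SD, n = 2), or 0.29 (standard error 0.20, adjusted p = 0.699), with 0.11 and 0.20 within the 2 chips. Srsf9 also had 0.29, but with differences of 0.35 and -0.21 inside the dim and second chips. Srsf6 had the lowest, 7.23 ± 0.11 (SD, n = 5) against 7.53 ± 0.38 (SD, n = 2), a log2 fold change of -0.30 (interval -0.76 to 0.16), with -0.39 and -0.07 within the chips and 0.01 under median scaling. Srsf2, Srsf3 and Srsf4 lay between 0.05 and 0.06. Srsf10 was detected on 3 treated arrays and neither control. Srsf12 was detected on no array.

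The hnRNP proteins gave the widest set, with 12 of 18 genes measured, 7 with a higher and 5 with a lower mean and a median log2 fold change of 0.06. Hnrnph3, a relative of Hnrnph1 that binds G-rich runs, read 5.07, 5.11, 5.04, 5.16 and 5.37 with BRD7116 and 5.51 and 6.47 with DMSO. It was detected on both controls and 1 treated array, and its treated values lay close together below both controls. Its log2 fold change was -0.84 (standard error 0.26, adjusted p = 0.658). The authors' values gave -0.24, and the treated arrays of the dim and second chips did not detect the probe. It was -0.38 without DMSO replicate 2, and -1.34 without DMSO replicate 1 with an adjusted p of 0.0145.

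Hnrnph1, which binds similar G runs, had the highest log2 fold change among the hnRNP genes. It read 8.43, 9.17, 9.10, 8.42 and 9.13 with BRD7116 and 8.88 and 7.57 with DMSO. The dim-chip control was the lowest array, and the other control lay inside the treated range. The log2 fold change was 0.63 (standard error 0.39, adjusted p = 0.684), with 0.86 and 0.29 within the chips, and it was -0.22 without DMSO replicate 2.

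Hnrnpa1, a well-studied splicing repressor, read 5.12, 5.57, 5.61, 5.73 and 5.73 with BRD7116 and 5.87 and 6.13 with DMSO on the probe used, a log2 fold change of -0.45 (standard error 0.22, adjusted p = 0.659). All treated values lay below both controls on this probe, which was detected on 4 treated arrays and 1 control. Neither array of the dim chip detected it, so the separation rests partly on background. A second Hnrnpa1 probe gave 0.65 (standard error 0.50), in the opposite direction, so the gene has no settled direction here, and median scaling turned the first probe to 0.32. Hnrnpc, which binds uridine tracts in introns, read 12.70, 12.43, 12.18, 12.04 and 12.19 with BRD7116 and 12.38 and 12.70 with DMSO. The dim-chip arrays of both groups were equal, and the log2 fold change of -0.23 (interval -0.75 to 0.29) was 0.00 within that chip and 0.05 within the second, and 0.02 under median scaling. Hnrnpf was detected on 2 treated arrays and neither control, at measured means of 5.21 and 4.89, and is given no fold. The other 7, Hnrnpa2b1, Hnrnpab, Hnrnpdl, Hnrnpk, Hnrnpl, Hnrnpll and Hnrnpm, had log2 fold changes from -0.26 to 0.22. Hnrnpa3, Hnrnpd, Hnrnpr, Hnrnpu and Hnrnpul1 were detected on 1 array each and Hnrnph2 on none.

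PRPF proteins, the mammalian counterparts of yeast Prp proteins, were the least well measured, with 7 of 11 genes kept and 2 detected on all arrays. Prpf18, a factor of the second splicing step, read 5.08, 7.41, 7.76, 7.33 and 7.62 with BRD7116 and 7.09 and 5.11 with DMSO. Both low values came from the dim chip, where the probe was not detected, and the remaining control lay below the remaining treated arrays. The log2 fold change of 0.94 had a standard error of 0.80 and an interval of -0.91 to 2.78, and the difference inside the second chip was 0.31. Prpf8, the large U5 protein at the catalytic core, read 4.65, 6.14, 6.66, 4.95 and 6.27 with BRD7116 and 5.50 and 4.53 with DMSO. The log2 fold change was 0.72 (standard error 0.58, adjusted p = 0.721), and the groups overlapped. This probe was detected on 3 treated arrays and 1 control, and a second Prpf8 probe gave 0.23 (standard error 0.40).

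Prpf19, the ubiquitin ligase of the complex that activates the spliceosome, was 9.51 ± 0.25 (SD, n = 5) against 9.70 ± 0.23 (SD, n = 2), a log2 fold change of -0.19 (interval -0.71 to 0.32). Prpf3, a U4/U6 protein, had -0.20 (interval -0.60 to 0.20), with -0.18 and -0.07 within the chips. Prpf38a had -0.22, with 0.13 inside the second chip, and was not detected on the treated array of the dim chip. Prpf40b had -0.04, and Prpf6 was detected on 2 treated arrays and neither control. For Prpf6, Hnrnpf and Srsf10, setting the controls at the lowest detected signal left a bound under 1-fold. Prpf39 was detected on 1 array and Prpf31, Prpf38b and Prpf4b on none. Across all the prefixes, 15 genes could not be measured, 6 detected on 1 array and 9 on none, and no fold change is given for them.

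**Figure D3:**
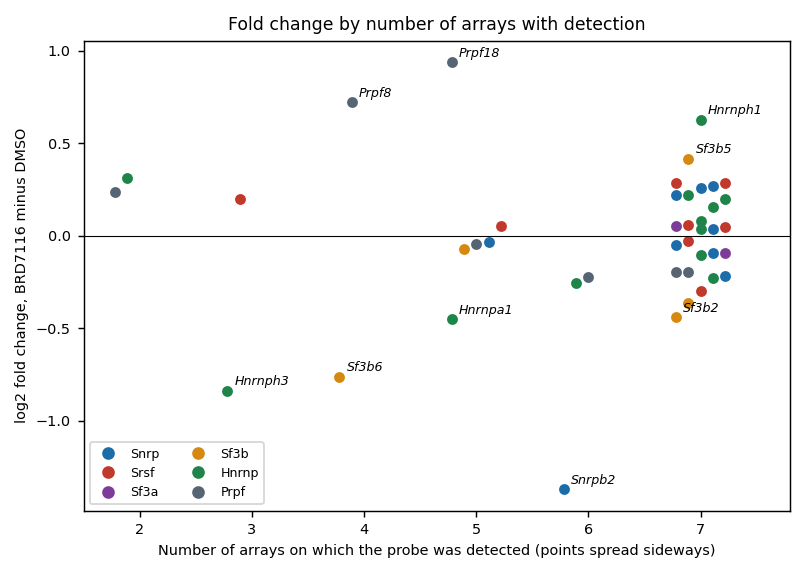
Log2 fold change of BRD7116 against DMSO (vertical axis) for the 43 measured splicing genes, by the number of arrays on which the probe was detected (horizontal axis), coloured by symbol prefix. The genes detected on all 7 arrays lie within 0.63 of 0, and the values farthest from 0 belong to Snrpb2, Prpf18, Hnrnph3 and Sf3b6, each detected on fewer arrays.

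The spread of the fold changes went with detection. The 28 genes detected on all 7 arrays ranged from -0.44 to 0.63, and 2 of them had separate groups, beside 12.6% of all features detected on all arrays. The 15 detected on 2 to 6 arrays ranged from -1.37 to 0.94, and 4 had separate groups, beside 11.1% of all features whatever their detection. Half-widths of the 95% interval had a median of 0.48 in the first set and 0.71 in the second (log2).

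Of the 6 genes with separate groups, Sf3b2 and Sf3b3 were detected on every array. Because all 6 were picked as lower on each treated array, their sign inside each chip was fixed by that choice. The sign was the same on both chips for 23 of the 43 genes, or 53.5%, beside 53.1% of all features. Of these, 16 were lower and 7 higher with BRD7116 on both, while 1782 and 1921 of the 6969 features were. These signs include probes that were not detected on some of the 4 arrays. With chip as a block none passed, and the 4 genes at an unadjusted p under 0.05, or 9.30% beside 12.9% of all features, were Snrpb2, Sf3b6, Hnrnph3 and Hnrnpa1.

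**Figure D4:**
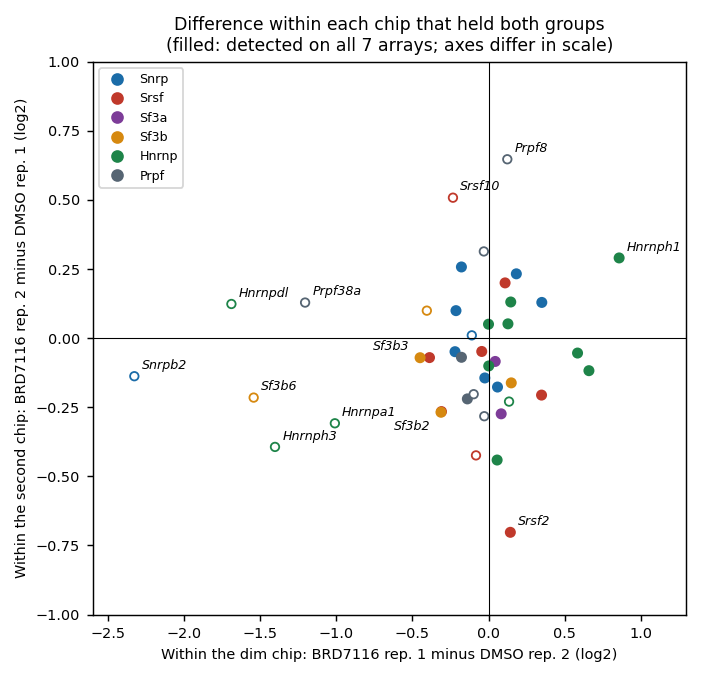
Difference between BRD7116 and DMSO (log2) within the dim chip (horizontal axis) and within the second chip (vertical axis) for the 43 measured splicing genes, coloured by prefix. Open points were not detected on every array, so their positions, among them those of Snrpb2, Sf3b6 and Hnrnph3 far to the left, rest partly on background, and filled Sf3b2 and Sf3b3 lie close to the centre.

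Several probes of a gene often differed in sign. Of the 16 genes with at least 2 measured probes, 9 had probes of opposite sign, and the same count was not made over all genes. Some of these turns lay near 0, as for Prpf3 at -0.20 and 0.01 (standard errors 0.18 and 0.26). For Hnrnph1, with 5 measured probes, the log2 fold changes were 0.63 and 0.69 on the 2 probes detected on all arrays. They were 0.80, 0.22 and -0.43 on probes detected on 5, 3 and 6 arrays. All 3 Hnrnpm probes had a higher mean with BRD7116, at 0.22, 0.38 and 0.62. The Prpf19 probes gave -0.19, 0.14 and -0.49, and the Snrpd1 probes -0.10 and 0.45. For Srsf5 they gave 0.29 and -0.05, and for Snrpb 0.22 and -0.11, each probe detected on all arrays. Both Srsf1 probes lay close to 0, at -0.03 and -0.16. Many of these genes are spliced into several isoforms, and which isoform a probe reads was not tested.

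Among the other genes of the splicing machinery none passed. Of 31 measured spliceosome components outside the prefixes, 14 had a higher and 17 a lower mean (median -0.14), and 3 (Isy1, Sart1 and Sf1) had treated arrays below both controls. In the other 4 lists Ddx39b and Clns1a lay wholly below and Mbnl2 and Dyrk1b wholly above, beside 5.4% and 5.75% of all features. Those with the smallest p were Ppih, a cyclophilin of the U4/U6 snRNP, at -0.76 (standard error 0.34) and Isy1, of the activating complex, at -0.37 (standard error 0.18). Isy1 was detected on all arrays, with -0.57 and -0.29 within the chips, while Ppih was detected on 2 arrays, 1 in each group.

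Of 22 other splicing regulators, 16 had a higher and 6 a lower mean (median 0.09). Mbnl2, a muscleblind protein, was detected on all arrays and was the only list gene at an unadjusted p under 0.05 (1 of 81 measured over the 5 lists, beside 7.07% of all features). Its log2 fold change was 0.58 (standard error 0.20, adjusted p = 0.658), with 0.97 and 0.45 within the chips. Elavl1, the RNA-stability factor HuR, had 0.94 (standard error 0.43), with 0.52 inside the second chip, and was not detected on the dim chip.

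Of 13 genes of the exon junction complex and splicing-coupled export, 8 had a higher mean (median 0.10), with Thoc6, a subunit of the export complex TREX, at 0.55 (standard error 0.46) but -0.35 without the dim chip. Rbm8a (Y14) was detected on 3 treated arrays and neither control. Of 9 snRNP assembly genes, 6 had a higher mean (median 0.07), with Clns1a, an Sm chaperone, at -0.32 (standard error 0.18). Wdr77, a methylosome subunit that prepares Sm proteins, was detected on 3 treated arrays and neither control. Of 6 splicing kinases, which phosphorylate SR proteins, 4 had a higher mean (median 0.14), with Dyrk1b at 0.58 (standard error 0.36). Srpk2 was detected on 4 treated arrays and neither control, and for Rbm8a, Wdr77 and Srpk2 the bound was under 1-fold.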

How the data were processed

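Bead intensities, one per probe and array with no normalization between arrays, and a detection p-value of each probe against negative control beads were used as the authors deposited them, per the file headers. A separate deposited table held the authors' log2 values, which share their quantiles across all 7 arrays (median 7.52) and served as an alternative. The scanner software and the authors' normalization method are not given in the sources used here.

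Intensities were background-corrected with limma 3.58.1 (R 4.3.3; neqc, an offset of 16, negative control levels being estimated through the detection p-values), quantile-normalized and log2-transformed. The filter kept probes that 2 or more arrays detected (p under 0.05). Platform annotation gave 1 symbol for 23978 probes and none for 1719, and each gene was represented by its probe of highest mean, which left 6969 features. The 5 BRD7116 arrays were compared with the 2 DMSO arrays by lmFit and eBayes, with Benjamini-Hochberg adjustment over all features. The number of arrays limits the precision. The fit was tested on simulated data.

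The members and lists were chosen with earlier results of these data known. Genes named were, in each prefix, the gene of highest mean and the 2 highest and 2 lowest in log2 fold change, every member at an unadjusted p under 0.05, and the 2 of smallest p in each other list. Sf3b3, the remaining measured gene of the Sf3b prefix, and other genes named beyond that rule were chosen after their values were seen. Alternatives covered background, scaling, filter, probe choice, chip, variance model and each array left out. Equal replicate numbers lay on different chips and did not deviate together, so they were not treated as pairs.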

Additional observations from a re-analysis of the deposited data

Results flagged for a closer look

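Within the BRD7116 group, 4 of the 43 measured splicing genes had one array standing apart from the other 4, judged by its gap to the nearest array against the range of the group. Chance gives about 2.15 such genes among 43. In all 4 the low array was BRD7116 replicate 1, on the dim chip. Prpf18 read 5.08 there against 7.33 to 7.76 on the others, and Hnrnpdl 5.59 against 7.08 to 7.41. Srsf4 read 7.08 against 8.01 to 8.23, and Hnrnpa1 5.12 against 5.57 to 5.73. That array detected the probe of Srsf4 but not those of Prpf18, Hnrnpdl and Hnrnpa1, whose readings there rest on background.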

How the results depend on the processing

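The 20 alternatives gave 695 values for the 36 named genes, of which 648 kept direction and side of the threshold, 42 turned in direction for 19 genes and 5 passed the threshold. The cause of these changes was not tested. The count of all features past the threshold (limma adjusted p) was 0, and became 1 with normexp background correction, the authors' values, no detection filter or detection on all 7 arrays, and 2 with no background correction or a trended robust variance. Leaving out one array at a time gave 0 to 610, the 610 without DMSO replicate 1, where 3 splicing genes passed (Snrpb2, Sf3b6 and Hnrnph3) and also Ppih and Thoc6; the other arrays left out gave 0. Splicing genes at an unadjusted p under 0.05 numbered 4, beside 7.07% of all features. They numbered 0 with median scaling (0.359% of all), the 2 chips holding both groups (2.22%) or the replicate block (0.258%), 2 with detection on all arrays (8.82%) or without the dim chip (9.52%), 7 with no filter (6.78%), and 0 to 7 with one array left out (1.77% and 24.2%).

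The median of the splicing genes was 0.04, and was 0.19 with median scaling (relative to a shift of 0.55 in all features), -0.085 on the 2 chips and -0.082 without the dim chip, with -0.071 to 0.14 when one array was left out. The Sf3b-prefix median of -0.36 was -0.23 with median scaling or no filter, -0.22 with the authors' values and -0.18 without the dim chip. It ranged from -0.50 to -0.22 with one array left out.

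Of the values below, those of Hnrnpf and Wdr77 are fitted differences against undetected controls and no fold is read from them. Turned values under median scaling were Snrpd2 0.19, Snrpa1 0.067, Srsf1 0.20, Srsf6 0.014, Sf3a1 0.18, Hnrnpc 0.023, Hnrnpf -0.16, Hnrnpa1 0.32, Prpf19 0.061, Prpf3 0.088 and Wdr77 -0.14. With the mean of detected probes Hnrnpa1 was 0.10. With chip as a block, and with the replicate block, Sf3a3 was -0.020, Sf3b5 -0.0061, Hnrnpc 0.025 and Hnrnpf -0.047. On the 2 chips Sf3a3 was -0.019, Sf3b5 -0.015, Hnrnpc 0.024 and Prpf8 -0.086. Without the dim chip Sf3b4 was 0.0037, Hnrnph1 -0.12, Hnrnpa1 0.56, Prpf38a 0.28 and Thoc6 -0.35. With array weights Snrpd2 was 0.0021, Sf3b4 0.012 and Prpf38a 0.0045. With one array left out at a time, the ranges that crossed 0 were Snrpd2 -0.16 to 0.058, Srsf1 -0.077 to 0.030, Sf3b4 -0.11 to 0.018, Hnrnph1 -0.22 to 1.28, Hnrnpa1 -0.59 to 0.23, Prpf18 -0.071 to 1.94, Prpf38a -0.52 to 0.079 and Thoc6 -0.44 to 1.53. The turned values came without DMSO replicate 2 for the last 5, without DMSO replicate 1 for Snrpd2 and Srsf1, without BRD7116 replicate 1 for Snrpd2 and Sf3b4, and without BRD7116 replicate 5 for Srsf1.

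Deviations of BRD7116 replicate 1 correlated with those of DMSO replicate 2, on its chip, at 0.52 over features, and those of BRD7116 replicate 2 with DMSO replicate 1 at 0.32. With 2 controls, the correlation with the equally numbered one is the same value with its sign turned (-0.52 and -0.32), so these are not further observations. The chip block is the crossed pairing. For genes not detected on an array, the signal over background limits what a fold change can show.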
